A study of Mus musculus with 12 samples.

Results

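Transcripts of 9 TGF-beta genes were followed in reprogramming mouse embryonic fibroblasts. The genes were the ligands Tgfb1, Tgfb2, Tgfb3 and Inhba, the receptors Tgfbr1 and Tgfbr2, the inhibitors Smad7 and Skil, and the target Tgfbi. Probe sets whose only gene symbol was one of these names were taken. Each gene had 1 such probe set, so no choice between probe sets was needed. They are 9 of 22180 genes with a probe set of their own, and all 9 were among the 17860 genes that passed the low-value filter, which asked for the array's own 30th percentile in at least 3 arrays. The rule for probe sets used levels alone and no difference between groups. The 9 genes themselves were chosen with earlier results of these data known.

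The cells came from E13.5 embryos of C57Bl/6 and 129X1/SvJ background and carried Col1a1::tetOP-OKSM with R26-M2rtTA. With doxycycline, the transactivator switches on the cassette for the reprogramming factors Oct4, Klf4, Sox2 and c-Myc. Every sample was infected with a retroviral hairpin vector, grown with serum and LIF, and induced. The 4 groups of 3 arrays were the Chaf1a hairpin at day 6, the Renilla hairpin at day 6, the Chaf1a hairpin at day 3 and the Renilla hairpin at day 3. The product of Chaf1a is a subunit of the histone chaperone CAF-1, and Renilla luciferase is a control target that mouse cells lack. All groups, controls included, carried the induced factors, and cells without induction were not analysed here, so a level at either day cannot be set against the starting fibroblast. The labels do not say whether replicates were separate embryos or cultures, so p-values measure the spread between these samples, which may be technical.

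TGF-beta ligands are secreted in a latent form and, once released, bind a type II receptor (Tgfbr2), which activates the type I receptor (Tgfbr1). The active receptor phosphorylates Smad2 and Smad3, which enter the nucleus with Smad4 and switch on target genes. Among those targets are the pathway's own brakes, so that transcripts of Smad7 and Skil are known to follow the activity of the pathway. In fibroblasts the pathway maintains the contractile and matrix-producing state, and TGF-beta is known to hinder reprogramming of fibroblasts while inhibitors of its receptor favour it.

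Array quality was even. Median intensities ran from 39.5 to 43.3 over the 12 arrays, Pearson's r between arrays of a group over genes was 0.994 to 0.996, and the number of arrays limits the precision. Chaf1a itself had a log2 fold change (Chaf1a hairpin over Renilla hairpin) of −0.12 at day 6 (limma adjusted p = 0.999) and −0.29 at day 3 (adjusted p = 0.726), so the targeted transcript did not pass the test. At day 3, 0% of all genes passed. The unadjusted limma p of Chaf1a was 0.00981 there, where 6.01% of all genes had one under 0.05. Its hairpin groups did not overlap at day 3, as for 10.8% of all genes, and overlapped at day 6. Of 9 fibroblast markers 8 passed the low-value filter, among them Vim, Col1a1 and Thy1, and Lum did not. In every array 8 of the 9 markers stood at or above the filter's threshold. Same-number arrays deviated together from their group means (12 of 12 pairs with r over 0.1), so differences within a replicate number are given as well.

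Between day 3 and day 6, the 9 genes split into those that rose, those that fell and those that did not pass the test. Tgfb2, Tgfbr2 and Tgfbi rose, and Inhba, Smad7 and Skil fell, with either hairpin. That is 6 of 9 genes with the Chaf1a hairpin, where 17.9% of all genes tested passed, and 6 of 9 with the Renilla hairpin, where 17.6% passed (limma, Benjamini-Hochberg adjusted p under 0.05). By direction, 3 of 9 rose with the Chaf1a hairpin, against 7.46% of all genes, and 3 of 9 with the Renilla hairpin, against 6.99%. The 3 of 9 that fell stand beside 10.5% of all genes with the Chaf1a hairpin and 10.6% with the Renilla hairpin. The same 6 passed in both hairpins in the same direction, as did 11.7% of all genes. Since the 9 genes were chosen with earlier results of these data known, these shares are a description and no test. The ligands Tgfb2 and Inhba changed in opposite directions, and both inhibitors fell. Day 6 and day 3 arrays did not overlap for 7 of 9 genes with the Chaf1a hairpin, against 34.3% of all genes, and for 6 of 9 with the Renilla hairpin, against 35.3%. The median absolute log2 fold change of the 9 was 0.52 with the Chaf1a hairpin, against 0.12 over all genes, and 0.62 with the Renilla hairpin, against 0.11. In bulk RNA, fewer cells of a type and less RNA per cell cannot be told apart.

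**Figure D1:**
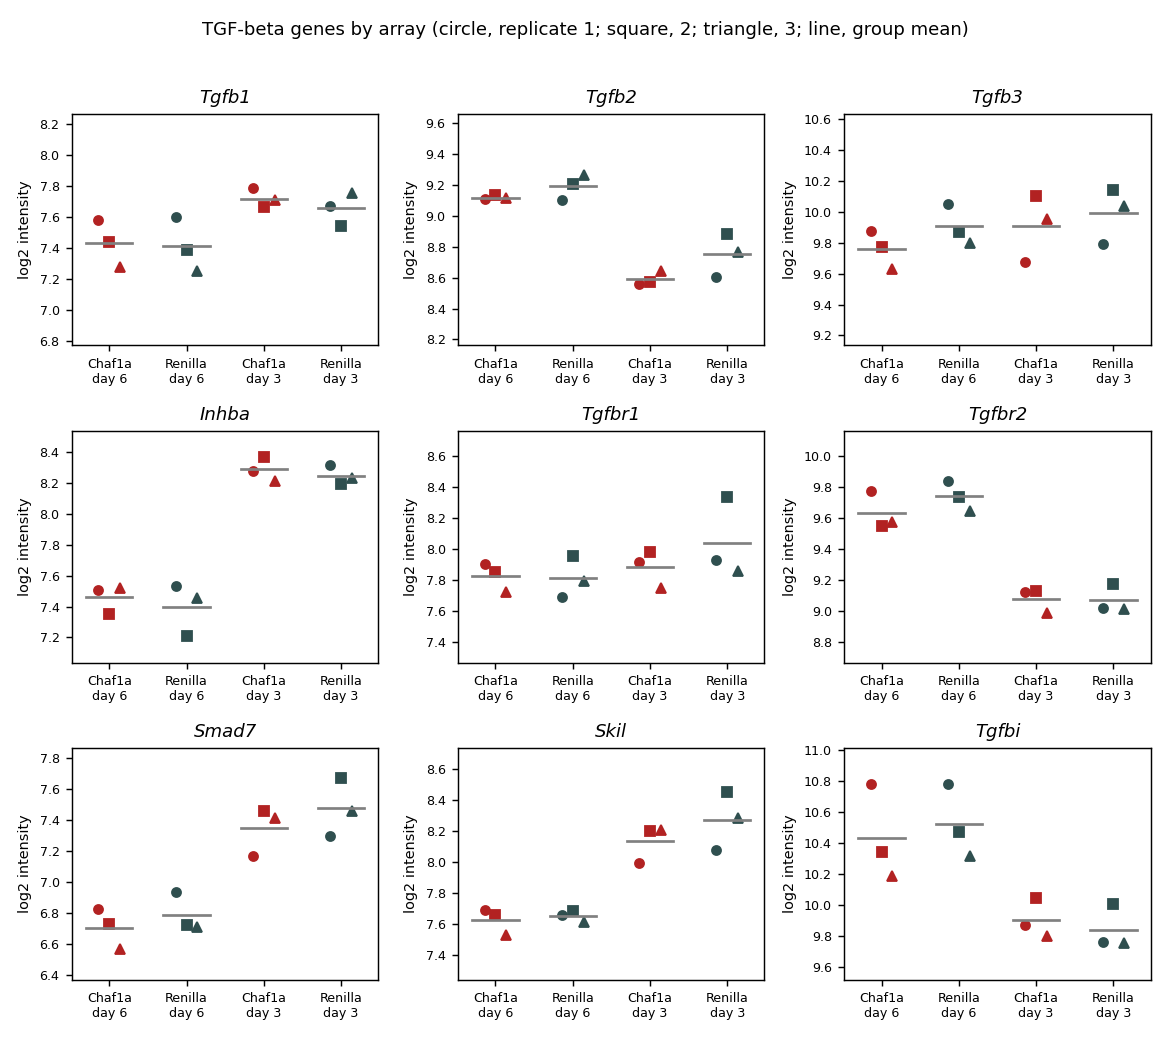
Log2 intensity of each of the 9 TGF-beta genes (vertical axis, the same span of 1.5 in every panel) in the 3 arrays of each group, with a line at the group mean; shape gives the replicate number. In the panels of Tgfb2, Tgfbr2, Tgfbi, Inhba, Smad7 and Skil the day 6 arrays stand clear of the day 3 arrays of the same hairpin, while the Chaf1a and Renilla arrays of 1 day overlap in all 9 panels.

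Promoters of 4 of the genes that changed are shown so that their start regions can be compared. RefSeq promoters (GRCm38.p6, 250 bases before to 50 after the start site) were used for 6 of the 9 genes, and 4 of these changed with time. Smad7 was left out by plan, and no promoter was matched for Skil or Tgfb3. Of the genes that fell, Inhba alone is shown. Capitals mark matches to 3 motifs searched on both strands: CAGACA, a Smad-type box, TGANTCA, the AP-1 element, and TATAAA, the TATA box. The third motif was chosen after the sequences were seen, and no 2 matches overlapped.
Tgfb2 (chr1:186705940-186706239, minus strand): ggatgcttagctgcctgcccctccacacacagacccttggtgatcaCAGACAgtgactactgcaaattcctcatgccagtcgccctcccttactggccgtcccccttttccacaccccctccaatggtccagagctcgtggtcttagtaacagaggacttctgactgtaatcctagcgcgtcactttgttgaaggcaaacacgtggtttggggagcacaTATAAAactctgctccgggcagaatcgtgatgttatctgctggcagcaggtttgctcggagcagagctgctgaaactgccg
Tgfbr2 (chr9:116175314-116175613, minus strand): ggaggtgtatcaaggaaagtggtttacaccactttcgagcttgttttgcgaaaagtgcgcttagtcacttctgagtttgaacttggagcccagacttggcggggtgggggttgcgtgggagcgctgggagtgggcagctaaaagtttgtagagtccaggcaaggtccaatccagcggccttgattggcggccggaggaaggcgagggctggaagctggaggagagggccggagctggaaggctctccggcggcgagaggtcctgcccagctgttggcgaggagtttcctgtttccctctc
Tgfbi (chr13:56609336-56609635, plus strand): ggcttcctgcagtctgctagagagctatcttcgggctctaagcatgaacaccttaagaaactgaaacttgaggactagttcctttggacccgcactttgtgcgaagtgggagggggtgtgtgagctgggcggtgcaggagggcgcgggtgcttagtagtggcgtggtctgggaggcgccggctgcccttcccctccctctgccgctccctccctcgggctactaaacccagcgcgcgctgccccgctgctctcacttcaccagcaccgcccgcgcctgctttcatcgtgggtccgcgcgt
Inhba (chr13:16011601-16011900, plus strand): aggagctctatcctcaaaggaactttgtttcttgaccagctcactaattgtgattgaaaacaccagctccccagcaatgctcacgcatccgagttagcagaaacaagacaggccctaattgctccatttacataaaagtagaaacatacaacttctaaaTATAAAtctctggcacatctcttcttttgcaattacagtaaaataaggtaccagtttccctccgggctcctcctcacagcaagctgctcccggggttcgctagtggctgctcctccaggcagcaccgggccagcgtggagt
Tgfb2 held CAGACA 204 bases and TATAAA 31 bases before the start site, and Inhba held TATAAA 91 bases before it. Tgfbr2 and Tgfbi held none of the 3 motifs in this window, and their GC content was 59% and 63.3%, against 54.3% for Tgfb2, 47.7% for Inhba and a median of 52.7% over all promoters. CAGACA occurred in 21% of 32851 promoters of this length, TGANTCA in 7.81% and TATAAA in 13.6%. A match in these letters is a description and not a binding site. The 3 genes that rose together shared none of the 3 motifs.

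Of the ligands, Tgfb2 rose and Inhba fell. Tgfb2, which encodes the TGF-beta 2 ligand, had log2 intensities of 9.11, 9.13 and 9.11 at day 6 with the Chaf1a hairpin, against 8.56, 8.57 and 8.65 at day 3. In the Renilla arrays it stood at 9.10, 9.21 and 9.26 at day 6, against 8.61, 8.88 and 8.77 at day 3. Every day 6 array lay above every day 3 array. The rise was 1.44-fold with the Chaf1a hairpin (log2 fold change 0.52, SE 0.07, limma adjusted p = 4.58e-04) and 1.36-fold with the Renilla hairpin (0.44, SE 0.07, adjusted p = 0.00158). Within replicate numbers the rise was 0.47 to 0.56 with the Chaf1a hairpin and 0.33 to 0.50 with the Renilla hairpin.

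Inhba, whose product forms the dimer activin A, had the largest change of the 9 genes. Its log2 intensities were 7.50, 7.35 and 7.52 at day 6 with the Chaf1a hairpin, against 8.28, 8.37 and 8.21 at day 3. In the Renilla arrays they were 7.53, 7.21 and 7.46 at day 6, against 8.32, 8.19 and 8.23 at day 3. The 6 day 6 arrays and the 6 day 3 arrays were separated by more than the spread within either set. Inhba was 1.77-fold lower at day 6 with the Chaf1a hairpin (log2 fold change −0.83, SE 0.09, adjusted p = 5.42e-05) and 1.80-fold lower with the Renilla hairpin (−0.85, SE 0.09, adjusted p = 5.70e-05).

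Tgfb1 and Tgfb3 did not pass. Tgfb1, the ligand first described in the family, stood at 7.58, 7.44 and 7.28 at day 6 with the Chaf1a hairpin, against 7.79, 7.67 and 7.71 at day 3. The Renilla arrays stood at 7.60, 7.39 and 7.25, against 7.67, 7.54 and 7.75. The days did not overlap with the Chaf1a hairpin and overlapped with the Renilla hairpin. The log2 fold change was −0.29 (adjusted p = 0.0635) with the Chaf1a hairpin and −0.24 (adjusted p = 0.117) with the Renilla hairpin. With replicate number as a block, Tgfb1 passed with the Chaf1a hairpin (adjusted p = 0.0354) and did not with the Renilla hairpin (adjusted p = 0.0701). The block count was then 3 genes higher and 4 lower with the Chaf1a hairpin, against 8.53% and 11.1% of all genes. Tgfb1 also passed without Chaf1a replicate 1 at day 6 (adjusted p = 0.0381) or without Renilla replicate 1 at day 6 (adjusted p = 0.0457), and it was lower at day 6 in all 6 same-number pairs.

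Tgfb3, the third TGF-beta isoform, showed replicate 1 apart from the others. Replicate 1 was higher at day 6 by 0.20 with the Chaf1a hairpin and by 0.26 with the Renilla hairpin. The other 4 same-number pairs were lower, with differences from −0.33 to −0.24. The fitted log2 fold change was −0.15 (95% interval −0.41 to 0.11, adjusted p = 0.436) with the Chaf1a hairpin and −0.08 (−0.34 to 0.18, adjusted p = 0.706) with the Renilla hairpin.

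Of the receptors, Tgfbr2 rose and Tgfbr1 did not pass. Tgfbr2 had log2 intensities of 9.77, 9.55 and 9.57 at day 6 with the Chaf1a hairpin, against 9.12, 9.13 and 8.99 at day 3. With the Renilla hairpin it stood at 9.84, 9.73 and 9.64, against 9.02, 9.17 and 9.01. The days did not overlap with either hairpin. The rise was 1.47-fold with the Chaf1a hairpin (log2 fold change 0.55, SE 0.08, adjusted p = 6.54e-04) and 1.59-fold with the Renilla hairpin (0.67, SE 0.08, adjusted p = 1.98e-04).

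Tgfbr1, the type I receptor kinase, stood at 7.90, 7.85 and 7.72 at day 6 with the Chaf1a hairpin, against 7.92, 7.98 and 7.75 at day 3. With the Renilla hairpin it stood at 7.69, 7.95 and 7.79, against 7.93, 8.34 and 7.86. Renilla replicate 2 at day 3 was the highest of the 12 arrays. The log2 fold change was −0.06 (95% interval −0.32 to 0.20, adjusted p = 0.790) with the Chaf1a hairpin and −0.23 (−0.49 to 0.03, adjusted p = 0.221) with the Renilla hairpin. Whether Tgfbr1 and Tgfbr2 changed by different amounts was not tested.

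Both inhibitors fell. Smad7, an inhibitory Smad that blocks the receptor and brings ubiquitin ligases to it, had log2 intensities of 6.82, 6.73 and 6.56 at day 6 with the Chaf1a hairpin, against 7.17, 7.46 and 7.41 at day 3. With the Renilla hairpin it stood at 6.93, 6.72 and 6.71, against 7.30, 7.67 and 7.46. It was 1.56-fold lower at day 6 with the Chaf1a hairpin (log2 fold change −0.64, SE 0.11, adjusted p = 0.00185) and 1.61-fold lower with the Renilla hairpin (−0.69, SE 0.11, adjusted p = 0.00129). Skil, which encodes the nuclear corepressor SnoN, stood at 7.69, 7.66 and 7.53 at day 6 with the Chaf1a hairpin, against 7.99, 8.20 and 8.21 at day 3. With the Renilla hairpin it stood at 7.66, 7.68 and 7.61, against 8.08, 8.45 and 8.29. For both genes every day 6 array lay below every day 3 array. Skil was 1.42-fold lower at day 6 with the Chaf1a hairpin (−0.51, SE 0.09, adjusted p = 0.00253) and 1.54-fold lower with the Renilla hairpin (−0.62, SE 0.09, adjusted p = 8.26e-04). The fall of Smad7 within replicate 1 was −0.35 with the Chaf1a hairpin and −0.36 with the Renilla hairpin, the smallest of the 3 pairs with each. The fall of Skil there was −0.30 with the Chaf1a hairpin and −0.42 with the Renilla hairpin, again the smallest.

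Tgfbi, a secreted adhesion protein of the matrix that was named for its induction by TGF-beta, rose while Smad7 and Skil fell. Its log2 intensities were 10.78, 10.34 and 10.19 at day 6 with the Chaf1a hairpin, against 9.87, 10.04 and 9.80 at day 3. In the Renilla arrays they were 10.78, 10.47 and 10.32, against 9.76, 10.01 and 9.75. The days did not overlap, and replicate 1 was the highest at day 6 with both hairpins. The rise was 1.45-fold with the Chaf1a hairpin (log2 fold change 0.53, SE 0.15, adjusted p = 0.0276) and 1.61-fold with the Renilla hairpin (0.68, SE 0.15, adjusted p = 0.00791). Of the 6 genes called, Tgfbi alone lost its call under any alternative run. Without replicate 1 of both days the log2 fold change was 0.34 (adjusted p = 0.181) with the Chaf1a hairpin and 0.52 (adjusted p = 0.0880) with the Renilla hairpin. The Chaf1a call was also lost without replicate 1 at day 6 (0.36, adjusted p = 0.0913), replicate 1 at day 3 (0.52, adjusted p = 0.0759) or replicate 3 at day 3 (0.48, adjusted p = 0.0925), and without replicate 2 (0.65, adjusted p = 0.0607) or replicate 3 (0.60, adjusted p = 0.0518) of both days.

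**Figure D2:**
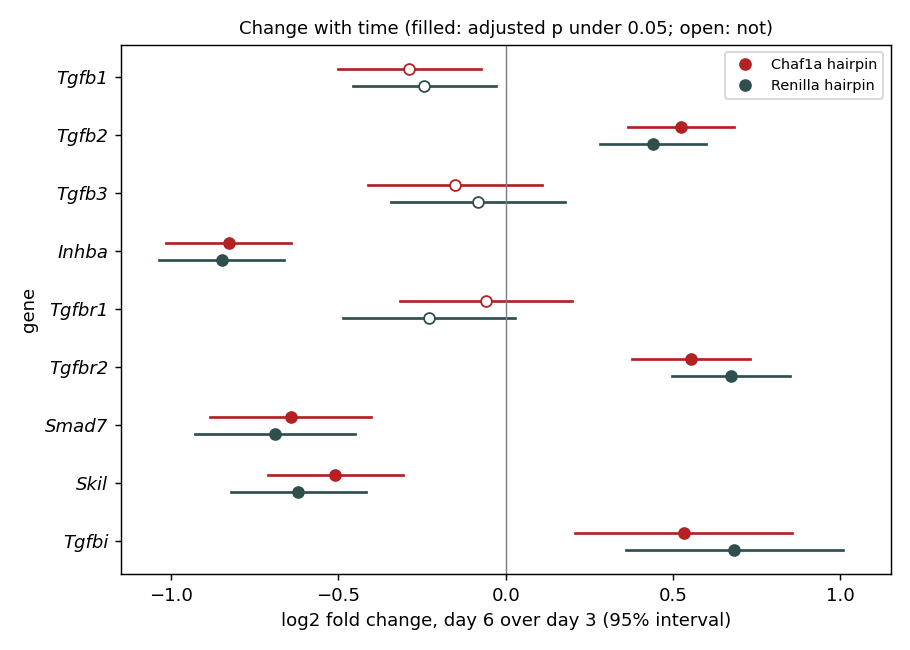
Log2 fold change of day 6 over day 3 (horizontal axis) with its 95% interval for each gene, with the Chaf1a hairpin above the Renilla hairpin; filled points passed an adjusted p of 0.05 in limma. Inhba, Smad7 and Skil lie between −0.85 and −0.51, Tgfb2, Tgfbr2 and Tgfbi between 0.44 and 0.68, and the intervals of the 2 hairpins overlap for every gene.

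Chaf1a knockdown changed none of the 9 genes past the threshold. At day 6, 0 of 9 passed in limma, where 0.0392% of all genes did, and 0 of 9 had an unadjusted p under 0.05, as did 4.44% of all genes. At day 3, 0 of 9 passed, as did 0% of all genes, and 1 of 9, Tgfb2, had an unadjusted p under 0.05, beside 6.01% of all genes. The hairpin groups overlapped for all 9 genes on both days. They did not overlap for 10.6% of all genes at day 6 and 10.8% at day 3. For as few as 9 genes, 0 lies near those shares. The 95% intervals at day 6 ran from −0.41 at the lowest to 0.27 at the highest, and at day 3 from −0.41 to 0.39.

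Tgfb2 came closest at day 3, with a log2 fold change of −0.16 (95% interval −0.32 to −0.00, unadjusted p = 0.0495, limma adjusted p = 0.828). It was lower with the Chaf1a hairpin in all 3 same-number pairs, with differences from −0.31 to −0.05. At day 6 its log2 fold change was −0.07 (−0.23 to 0.08, adjusted p = 0.999). Averaged over both days it was −0.12 (−0.23 to −0.00, adjusted p = 0.879), which did not pass, and 0 of 9 genes passed that comparison, as did 0% of all genes. There, 1 of 9 had an unadjusted p under 0.05, against 5.54% of all genes. Within same-number pairs, Tgfb3, Tgfbr2 and Tgfbi were lower with the Chaf1a hairpin in 3 of 3 pairs at day 6. At day 3, Tgfb2, Tgfb3, Tgfbr1, Smad7 and Skil were lower in 3 of 3 pairs and Tgfbi was higher in 3 of 3. How many of all genes had 3 of 3 pairs in 1 direction was not counted, so these pair counts have no background. Tgfb3, lower in every pair of both days, had log2 fold changes of −0.15 at day 6 (adjusted p = 0.999) and −0.08 at day 3 (adjusted p = 0.960). For Inhba, the gene with the largest change over time, day 6 gave a hairpin difference of 0.06 (−0.13 to 0.25) and day 3 one of 0.04 (−0.15 to 0.23). For Tgfbr2 the day 6 value was −0.11 (−0.28 to 0.07) and the day 3 value 0.01 (−0.17 to 0.19).

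The change over time was also set against the hairpin directly. The test of the difference, the change with the Chaf1a hairpin minus that with the Renilla hairpin, was passed by 0 of 9 genes and 0% of all genes, with adjusted p-values of 0.991 to 0.996 and 0 of 9 at an unadjusted p under 0.05, against 5.10% of all genes. The difference was 0.08 for Tgfb2 (95% interval −0.14 to 0.31), −0.12 for Tgfbr2 (−0.37 to 0.13), −0.15 for Tgfbi (−0.61 to 0.31) and 0.02 for Inhba (−0.24 to 0.29). For the inhibitors it was 0.05 for Smad7 (−0.29 to 0.39) and 0.11 for Skil (−0.17 to 0.40).

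**Figure D3:**
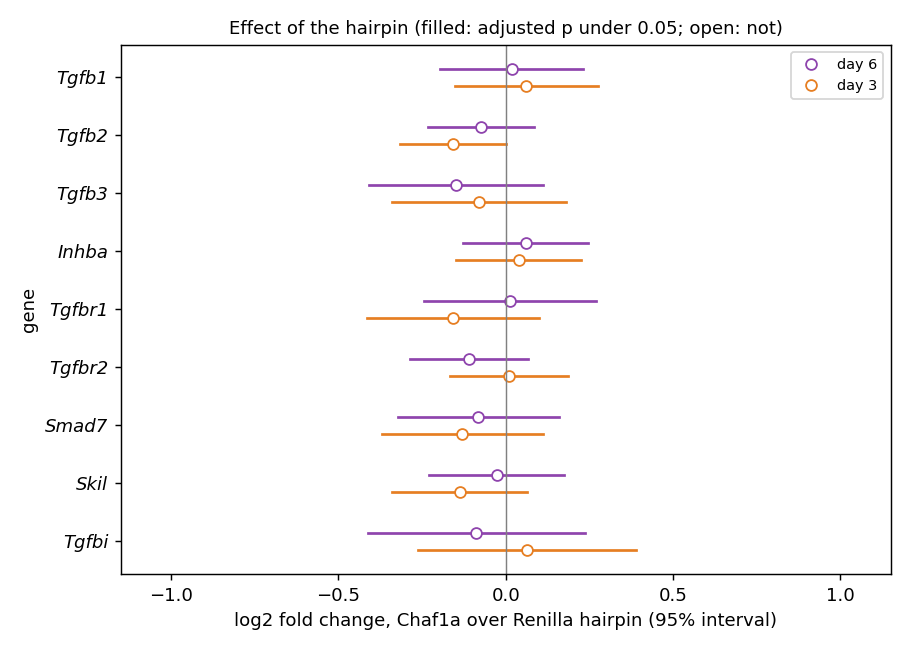
Log2 fold change of the Chaf1a hairpin over the Renilla hairpin (horizontal axis, same scale as the plot of change with time) with its 95% interval, at day 6 above day 3; open points did not pass an adjusted p of 0.05. All 18 points are open and lie between −0.16 and 0.06.

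Other genes of the pathway were described from 6 lists, chosen like the 9 genes with earlier results of these data known. Of 88 genes that passed the low-value filter, 16 rose and 18 fell from day 3 to day 6 with the Chaf1a hairpin, and 12 rose and 15 fell with the Renilla hairpin. That is 38.6% of the lists with the Chaf1a hairpin, beside 17.9% of all genes, and 30.7% with the Renilla hairpin, beside 17.6%. A pathway gene named below with 1 hairpin alone passed there and not with the other, which is no test of a difference. The test of the difference in change between hairpins was passed by 0 of 88 genes, as by 0% of all genes. In it, 8 had an unadjusted p under 0.05, where 5.10% of all genes did. Tdgf1, described below, was among those 8. Between hairpins at day 6, 1 of 88 passed, where 0.0392% of all genes did, and 7 had an unadjusted p under 0.05, where 4.44% of all genes did. At day 3, 0 of 88 passed, as did 0% of all genes, and 4 had an unadjusted p under 0.05, a smaller share than the 6.01% of all genes. The gene at day 6 was Tdgf1, a Nodal co-receptor of embryonic stem cells. Its log2 intensities at day 6 were 6.62, 5.51 and 5.47 with the Chaf1a hairpin, against 3.99, 4.15 and 4.16 with the Renilla hairpin. All 9 arrays outside the Chaf1a day 6 group lay below their filter threshold, so Tdgf1 passed the filter only through the group where it was high, and no fold is given for it.

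Of 18 genes of ligand release and binding, 3 rose and 1 fell with the Chaf1a hairpin, beside 7.46% higher and 10.5% lower of all genes. With the Renilla hairpin 2 rose and 2 fell, beside 6.99% and 10.6%. The share called was close to that of all genes with either hairpin. Fmod, encoding fibromodulin, a matrix proteoglycan that binds TGF-beta, rose by a log2 fold change of 1.06 with the Chaf1a hairpin and 1.08 with the Renilla hairpin. Fstl3, an extracellular binder of activin, fell as Inhba did, with −0.72 with the Chaf1a hairpin and −0.56 with the Renilla hairpin. Of the latent TGF-beta binding proteins, Ltbp3 rose by 0.29 with the Chaf1a hairpin and 0.28 with the Renilla hairpin. Ltbp4 rose with the Chaf1a hairpin (0.48) and did not pass with the Renilla hairpin (0.43, limma adjusted p = 0.0551). Ltbp2 fell with the Renilla hairpin (−0.56) and did not pass with the Chaf1a hairpin (−0.50, adjusted p = 0.0655). With replicate number as a block the counts were 4 higher and 4 lower with each hairpin. All genes in that fit gave 8.53% higher and 11.1% lower with the Chaf1a hairpin, and 7.83% and 11.0% with the Renilla hairpin.

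Of 7 other ligands, 1 rose and 1 fell with the Chaf1a hairpin, beside 7.46% higher and 10.5% lower of all genes. With the Renilla hairpin 2 rose and 0 fell, beside 6.99% and 10.6%. Gdf11, an activin-type ligand, fell with the Chaf1a hairpin (−0.49) and had −0.19 with the Renilla hairpin, which did not pass. Nodal, a ligand of early embryos, rose with the Chaf1a hairpin (0.23, adjusted p = 0.0431), a call lost once replicate number was a block (adjusted p = 0.0567). With the Renilla hairpin Nodal had −0.01. Inhbb (0.46) and Inha (0.34), which encode inhibin and activin chains, rose with the Renilla hairpin. With the Chaf1a hairpin they had 0.27 and −0.05 and did not pass.

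Of 8 other receptors and co-receptors, 3 rose and 1 fell with the Chaf1a hairpin, beside 7.46% higher and 10.5% lower of all genes, and 2 rose and 1 fell with the Renilla hairpin, beside 6.99% and 10.6%. Tdgf1 is 1 of the 3 that rose with the Chaf1a hairpin, and it passed the filter only through those day 6 arrays. Acvr1b, an activin type I receptor, rose with the Chaf1a hairpin (log2 fold change 0.58) and had 0.19 with the Renilla hairpin, which did not pass. Acvr2b, an activin type II receptor, rose by 0.28 with the Chaf1a hairpin and 0.29 with the Renilla hairpin, while Eng, the co-receptor endoglin, fell (−0.42 with the Chaf1a hairpin and −0.29 with the Renilla hairpin). Tgfbr3, the co-receptor betaglycan, rose with the Renilla hairpin (0.36) and, with the replicate block, also with the Chaf1a hairpin (0.24, adjusted p = 0.0403).

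Of 12 Smads and nuclear partners, 7 rose and 0 fell with the Chaf1a hairpin, beside 7.46% higher and 10.5% lower of all genes, and 3 rose and 0 fell with the Renilla hairpin, beside 6.99% and 10.6%. Smad3, the receptor-regulated Smad that binds DNA, rose by 0.36 with each. Ski, a corepressor related to Skil, rose by 0.30 with the Chaf1a hairpin and 0.26 with the Renilla hairpin, and the corepressor Tgif2 by 0.30 with the Chaf1a hairpin and 0.17 with the Renilla hairpin. Foxh1 (0.36), Sp1 (0.27) and Ep300 (0.27), which bind with Smads at target genes, rose with the Chaf1a hairpin. With the Renilla hairpin they had 0.14, 0.16 and 0.07 and did not pass. With the replicate block 2 rose and 1 fell with the Renilla hairpin, beside 7.83% higher and 11.0% lower of all genes in that fit. Tgif2 no longer passed (adjusted p = 0.0607) and Smad6, an inhibitory Smad, did (−0.33, adjusted p = 0.0362). With arrays centred on their medians 4 rose with the Chaf1a hairpin and 1 with the Renilla hairpin. Without replicate 1 of both days 2 rose with the Chaf1a hairpin and 1 with the Renilla hairpin. Without replicate 2 of both days 3 rose with the Chaf1a hairpin, and without replicate 3 of both days 0 rose with the Renilla hairpin, where 1 rose without replicate 3 at day 3 or replicate 1 at day 6. The share of all genes was not counted with centred arrays or with arrays left out, so these counts have no background.

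Of 12 intracellular inhibitors and adaptors other than Smad7 and Skil, 1 rose and 4 fell with the Chaf1a hairpin, beside 7.46% higher and 10.5% lower of all genes. With the Renilla hairpin 1 rose and 3 fell, beside 6.99% and 10.6%. Smurf1, a ubiquitin ligase that Smad7 brings to the receptor, fell by a log2 fold change of −0.40 with the Chaf1a hairpin and −0.43 with the Renilla hairpin, and the related ligase Nedd4l by −0.31 with the Chaf1a hairpin and −0.27 with the Renilla hairpin. Fkbp1a, which binds the type I receptor, fell by −0.23 with the Chaf1a hairpin and −0.21 with the Renilla hairpin. Tgfbrap1, a receptor-associated protein, fell by −0.25 with the Chaf1a hairpin and had −0.06 with the Renilla hairpin, which did not pass. Dab2, an adaptor of receptor endocytosis, rose by 0.41 with the Chaf1a hairpin and 0.61 with the Renilla hairpin. With the replicate block 5 fell with the Chaf1a hairpin, beside 11.1% of all genes in that fit, Bambi, a decoy receptor, being added (−0.21, adjusted p = 0.0372).

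Of 31 genes known to respond to TGF-beta in fibroblasts and other cells, 11 fell with the Chaf1a hairpin, beside 10.5% of all genes, and 9 with the Renilla hairpin, beside 10.6%. Only 1 of the 31 rose with the Chaf1a hairpin, beside 7.46% of all genes, and 2 with the Renilla hairpin, beside 6.99%. Those that fell included Cnn1, a smooth muscle calponin (−1.79 with the Chaf1a hairpin and −1.49 with the Renilla hairpin), Ankrd1, a nuclear ankyrin-repeat protein (−1.35 with the Chaf1a hairpin and −1.41 with the Renilla hairpin), and Plaur, the urokinase receptor (−0.90 with the Chaf1a hairpin and −1.13 with the Renilla hairpin). Itga5, a fibronectin receptor subunit, also fell (−0.58 with the Chaf1a hairpin and −0.56 with the Renilla hairpin), as did Timp1, an inhibitor of matrix proteases (−0.52 with the Chaf1a hairpin and −0.45 with the Renilla hairpin). Lox, a collagen crosslinking enzyme, fell with the Chaf1a hairpin (−0.37) and did not pass with the Renilla hairpin (−0.25, limma adjusted p = 0.0652). Klf10, a transcription factor induced early by TGF-beta, fell with the Renilla hairpin (−0.39) and did not pass with the Chaf1a hairpin (−0.18, adjusted p = 0.0715). Those that rose, named after their values were seen, were Cdkn2b, a cell cycle inhibitor (0.31 with the Chaf1a hairpin and 0.39 with the Renilla hairpin), and Edn1, which encodes endothelin 1 (0.34 with the Renilla hairpin). Edn1 had 0.10 with the Chaf1a hairpin, which did not pass. The list's median log2 fold change was −0.19 with the Chaf1a hairpin and −0.10 with the Renilla hairpin, against 0.01 over all genes with each. With the replicate block 12 fell with the Chaf1a hairpin, beside 11.1% of all genes in that fit, Nox4, an NADPH oxidase, being added (−0.39, adjusted p = 0.0421). Without replicate 2 of both days 5 fell with each hairpin, and without replicate 3 of both days 7 fell with the Chaf1a hairpin. The share of all genes without those arrays was not counted, so these 2 runs have no background.

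**Figure D4:**
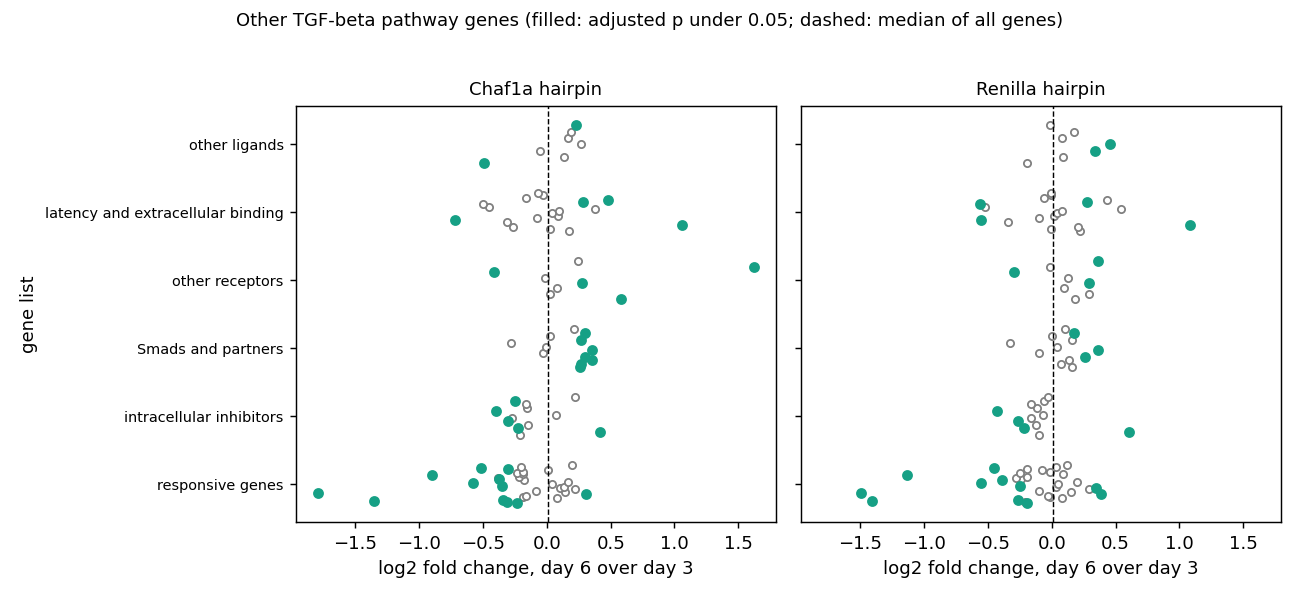
Log2 fold change of day 6 over day 3 (log2 scale) for every measured gene of the 6 pathway lists, 1 point a gene, with the Chaf1a hairpin and the Renilla hairpin in separate panels; filled points passed an adjusted p of 0.05 and the dashed line is the median of all genes. Most filled points of the responsive genes lie below 0, and all filled points of the Smads and partners lie above it.

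Marker genes of several cell types were described over the same days. Of 6 macrophage and leukocyte markers that passed the filter, 1 fell with each hairpin, beside 10.5% of all genes with the Chaf1a hairpin and 10.6% with the Renilla hairpin. It was Cd68 (log2 fold change −1.23 with the Chaf1a hairpin and −1.19 with the Renilla hairpin). Lyz2 (−0.86) was added with the Renilla hairpin under the replicate block (adjusted p = 0.0292), where 11.0% of all genes fell. Ptprc, the leukocyte common antigen, did not pass the filter. Over the list, the Chaf1a arrays summed to intensities between 392 and 405 at day 6, against 726 and 746 at day 3. The Renilla sums lay between 355 and 393 at day 6, against 649.8 and 686 at day 3. Cd68 makes up most of these sums, and the mean log2 intensity of the list moved less, lying between 5.10 and 5.20 in Chaf1a arrays at day 6, against 5.39 and 5.60 at day 3. In Renilla arrays it lay between 5.08 and 5.19 at day 6, against 5.40 and 5.55 at day 3.

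Of 8 fibroblast markers, 1 rose with each hairpin (Pdgfrb, by 0.91 with the Chaf1a hairpin and 1.11 with the Renilla hairpin), beside 7.46% and 6.99% of all genes. The fibroblast sums lay between 16815 and 18739 in Chaf1a arrays at day 6, against 16969 and 17721 at day 3. In Renilla arrays they lay between 17632 and 19377 at day 6, against 16992 and 17796 at day 3. The mean log2 intensity of the whole list stood apart in replicate 1 at day 6. It was 9.73 there, against 9.36 and 9.38 in replicates 2 and 3, with the Chaf1a hairpin, and 9.80 against 9.48 and 9.45 with the Renilla hairpin. At day 3 it lay between 9.36 and 9.44 in Chaf1a arrays and between 9.35 and 9.40 in Renilla arrays.

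Of 6 epithelial markers, 4 rose and 1 fell with the Chaf1a hairpin, beside 7.46% higher and 10.5% lower of all genes. With the Renilla hairpin 1 rose and 1 fell, beside 6.99% and 10.6%. Cdh1, which encodes E-cadherin, rose by 1.99 with the Chaf1a hairpin and 0.96 with the Renilla hairpin, and Krt19, a keratin, had −0.94 with the Chaf1a hairpin and −0.99 with the Renilla hairpin. The epithelial sums lay between 1137 and 1223 in Chaf1a arrays at day 6, against 988 and 1118 at day 3, and between 853 and 886 in Renilla arrays at day 6, against 1034 and 1172 at day 3. The mean log2 intensity of the list went the other way from the sum in Renilla arrays, lying between 6.68 and 6.72 at day 6, against 6.60 and 6.65 at day 3.

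Of 6 endothelial markers, 2 rose with each hairpin, beside 7.46% of all genes with the Chaf1a hairpin and 6.99% with the Renilla hairpin. They were Kdr, a VEGF receptor (1.25 with the Chaf1a hairpin and 1.00 with the Renilla hairpin), and Cdh5, VE-cadherin (0.51 with the Chaf1a hairpin and 0.40 with the Renilla hairpin). The endothelial sums lay between 1251 and 1313 in Chaf1a arrays at day 6, against 1272 and 1367 at day 3, and between 1139 and 1305 in Renilla arrays at day 6, against 1219.55 and 1319 at day 3. Of 6 pluripotent cell markers, 3 rose with the Chaf1a hairpin, Nanog (0.60), Sall4 (0.87) and Utf1 (1.06), and 0 passed with the Renilla hairpin in limma, where 0 also had an unadjusted p under 0.05. The pluripotent sums lay between 293 and 337 in Chaf1a arrays at day 6, against 195 and 201 at day 3. In Renilla arrays they lay between 209 and 216 at day 6, against 199.6 and 215 at day 3. The part of any of these cells in the changes of the TGF-beta genes was not tested.

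One array carried an interferon signal. Replicate 2 of the Chaf1a hairpin at day 3 had a summed intensity of 2661 over 7 interferon-stimulated genes, and the highest of the other 11 arrays was 1010. Without it the counts of TGF-beta genes that changed from day 3 to day 6 with the Chaf1a hairpin were again 3 higher and 3 lower. The share of all genes without that array was not counted.

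The genes whose pattern over the 12 arrays was most like that of Tgfbi and of Inhba were sought among 15621 genes. Tgfbi and Inhba were the members with the largest rise and the largest fall with the Renilla hairpin. For Tgfbi the 5 nearest were Rasa3 (Pearson's r = 0.988), Reck (0.979), Ecm2 (0.979), Sema5a (0.978) and Tns2 (0.977). For Inhba they were Cd44 (0.988), Ptgs2 (0.988), Eif2b3 (0.983), Apbb1ip (0.982) and Snx7 (0.981). The 12 arrays fall into 2 days and share replicate numbers, and the correlations are given as a description.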

How the data were processed

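The authors deposited 1 table of linear intensities for 12 Affymetrix arrays, made with Affymetrix Expression Console 1.3.0.187 and RMA, per the submitters' processing notes; RMA corrects background, quantile-normalizes and summarises probes. The genome build of the array annotation is not given in the sources used here. Of 41345 probe sets, 23521 carried 1 gene symbol, 1814 several and 16010 none. Intensities ran from 4.71 to 13421 and were taken to log2. The probe set of the highest mean stood for a gene. Genes had to reach the array's own 30th percentile (log2 4.30 to 4.38) in at least 3 arrays.

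limma 3.58.1 (R 4.3.3) was fitted to all 12 arrays with a mean per group, with 8 residual and 4.37 prior degrees of freedom, and p-values were adjusted by Benjamini-Hochberg over the 17860 genes, at a threshold of 0.05. The fit without a block was tested on simulated data with set changes between the days in the Renilla groups. Arrays varied independently in that simulation, so it did not cover a shared replicate number. The replicate numbers in the labels pair the arrays: deviations of same-number arrays from their group means correlated at 0.137 to 0.373 over genes in 12 of 12 pairs. The fit with replicate number as a block had 6 residual degrees of freedom, and its counts are given where they differ. Alternatives were other filters, normalizations, variance models and probe set rules, and leaving out arrays.

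The 9 genes and the lists were chosen with earlier results of these data known. The text names all 9 genes, Chaf1a, up to 6 genes of each pathway list past the threshold with the largest change in a comparison, and the 5 genes nearest in pattern to 2 of the 9. Marker genes and genes whose call rests on the replicate block were named after their values were seen.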

Additional observations from a re-analysis of the deposited data

How the results depend on the processing

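The numbers of TGF-beta genes that changed with time stayed within 5 to 7 of 9 under the alternatives run, with 2 to 3 higher and 3 to 4 lower, and none of the 9 passed a comparison between hairpins. Among these alternatives, the share of all genes was counted for the replicate block alone. Inhba, Skil, Smad7, Tgfb2 and Tgfbr2 passed over time with both hairpins in all 19 alternatives of each comparison. Tgfbi with the Chaf1a hairpin did not pass when all probe sets were adjusted together (adjusted p = 0.0580). With the replicate block, 3 genes rose and 4 fell with the Chaf1a hairpin, Tgfb1 being added (adjusted p = 0.0354), and the block changed no other call among the 9 genes. Tgfb1 also passed with array weights (adjusted p = 0.0412 with the Chaf1a hairpin and 0.0160 with the Renilla hairpin). Averaged over both days, 2 of all genes differed between hairpins with the block and 0 without it.

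Directions turned only where the log2 difference was under 0.1 in size and did not pass, and the cause was not tested. With arrays centred on their medians, Tgfbr2 between hairpins at day 3 was −0.00671. With array weights, Tgfbr1 between hairpins at day 6 was −0.0205 and the day 6 minus day 3 hairpin difference of Tgfb1 was 0.0179. When arrays were left out, the hairpin difference at day 6 ranged from −0.036 to 0.128 for Inhba, −0.0598 to 0.0224 for Skil, −0.0624 to 0.112 for Tgfb1, −0.259 to 0.0415 for Tgfbi and −0.0846 to 0.084 for Tgfbr1. At day 3 it ranged from −0.0279 to 0.0793 for Inhba, −0.178 to 0.0373 for Tgfb3, −0.00542 to 0.147 for Tgfbi and −0.0347 to 0.0613 for Tgfbr2. The average over days ranged from −0.00579 to 0.0924 for Inhba, −5.61e-05 to 0.0872 for Tgfb1, −0.0973 to 0.0529 for Tgfbi and −0.158 to 0.00672 for Tgfbr1. The difference between days ranged from −0.0754 to 0.0884 for Inhba, −0.0503 to 0.136 for Smad7, −0.125 to 0.0498 for Tgfb1 and −0.186 to 0.0294 for Tgfb3. Tgfb3 over time with the Renilla hairpin ranged from −0.254 to 0.0129. Counts over the pathway lists moved by over 1.5 times in 74 cases where arrays were left out and in 34 under other alternatives, most of them counts of few genes. With 3 arrays a group, the number of arrays limits what could be detected between hairpins.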
